A study of Mus musculus with 120 samples.

Results

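The genes described here encode the proteasome of mouse group 2 innate lymphoid cells (ILC2s), its activators, its inhibitor and its assembly factors. Every protein-coding gene whose symbol begins with Psma, Psmb, Psmc, Psmd, Psme, Psmf or Psmg followed by a number was taken, which gave 50 of the 46078 genes in the files. They comprised 7 core alpha genes (Psma1 to Psma7), 7 core beta genes (Psmb1 to Psmb7), 3 immunoproteasome genes (Psmb8, Psmb9 and Psmb10), 6 regulatory ATPases (Psmc1 to Psmc6), 11 regulatory non-ATPases of the Psmd series, 7 assembly factors (Psmd5, Psmd9, Psmd10 and Psmg1 to Psmg4), 5 activator genes (Psme1, Psme2, Psme2b, Psme3 and Psme4) and the inhibitor Psmf1. Psma8 and Psmb11, which belong to proteasomes of the testis and thymus, and Psmc3ip, a recombination factor that shares only the letters of the symbol, were kept apart from these classes.

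Single ILC2s were examined before stimulation and at set intervals after each began to secrete a cytokine, to follow transcription from rest to secretion. The cells came from pooled mesentery of 20 wildtype C57BL/6 mice (the tissue label reads fat tissues), were isolated as lineage-negative c-Kit+Sca-1+ cells, kept in long-term culture and, except for the pre-stimulation cells, stimulated with IL-2 and IL-33. Secretion of either IL-13 or IL-5 served as the index by which a cell was recovered. Each index held 60 cells, namely 5 pre-stimulation cells, 11 transition-state cells at each of 30, 60 and 90 min after the onset of secretion, 11 activated cells that secreted and 11 silent cells that did not, which gave 12 groups and 120 cells. Transition-state cells were timed from their own onset, whereas the paper states that activated and silent cells were recovered at a fixed time after stimulation began. No animal or culture was named for a cell, so each group counted as a single sample and groups were compared without a test. The titles carried 2 dates per index whose meaning the labels do not give, 5 cells of each state carrying the first date and 6 the second. All pre-stimulation cells carried the first, so that for cells of the second date the date and the state cannot be told apart in a comparison with pre-stimulation cells.

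The proteasome is the large protease that degrades proteins tagged with ubiquitin. Its barrel-shaped core is built of alpha and beta rings, and Psmb5, Psmb6 and Psmb7 encode the beta subunits that cut peptide bonds. The regulatory particle, built of the Psmc ATPases and Psmd subunits, sits on the end of the core, recognises ubiquitin, unfolds the substrate and feeds it in. In immune cells, and in other cells after interferon exposure, Psmb8, Psmb9 and Psmb10 encode subunits that take the places of those made from Psmb5, Psmb6 and Psmb7, in that order, and the resulting immunoproteasome is known for making peptides for MHC class I. Psme1 and Psme2 encode the 2 subunits of PA28, a cap that opens the core without ATP or ubiquitin and that is likewise induced by interferon.

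The libraries were 3' RNA libraries without molecular identifiers, and values are in CPM, that is, the reads of a gene summed over the cells of a group per 1000000 reads in genes. Depth per cell ran from 65 to 785198 gene reads with a median of 254001, 6 cells lay below 84667, the median divided by 3, and the groups held 964383 to 3732032 gene reads. Ranges over cells are given for the 114 deeper cells, while group values use every cell. Intervals in square brackets are exact 95% intervals that cover counting error only, and reads copied from 1 molecule are not independent, so the spread between cells is wider. All 11 ILC2 markers were detected, and their summed level per group ran from 3883 to 9543 CPM. The markers of B cells, NK cells and fat stroma were at 0, those of T cells reached 78.8 CPM in 1 group and those of myeloid cells 38.3 CPM. Mast cell and basophil markers reached 326 CPM, nearly all from Fcer1a, which had reads in 15 cells, while Mcpt8 and Ms4a2 were at 0. Fcer1a stood at 301 CPM in IL-13 pre-stimulation cells and 48.5 CPM in IL-13 activated cells, and its part in the comparisons was not tested.

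The classes of the proteasome did not move together. The core, the regulatory particle and PA28 stood higher in activated than in pre-stimulation cells in both indexes, and the summed immunoproteasome genes stood lower. In CPM summed over the class, the core alpha and beta genes were at 5788 before stimulation and 10994 in IL-13 activated cells, and at 5012 and 10807 in the IL-5 index. The regulatory particle was at 2110 and 4250 CPM in the IL-13 index and at 1346 and 4218 CPM in the IL-5 index. Psme1 and Psme2 together were at 1297 and 3973 CPM in the IL-13 index and at 1454 and 4021 CPM in the IL-5 index. The immunoproteasome genes were at 1454 and 654 CPM in the IL-13 index and at 920 and 547 CPM in the IL-5 index. The plot of summed class levels shows these values for all 12 groups.

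**Figure D1:**
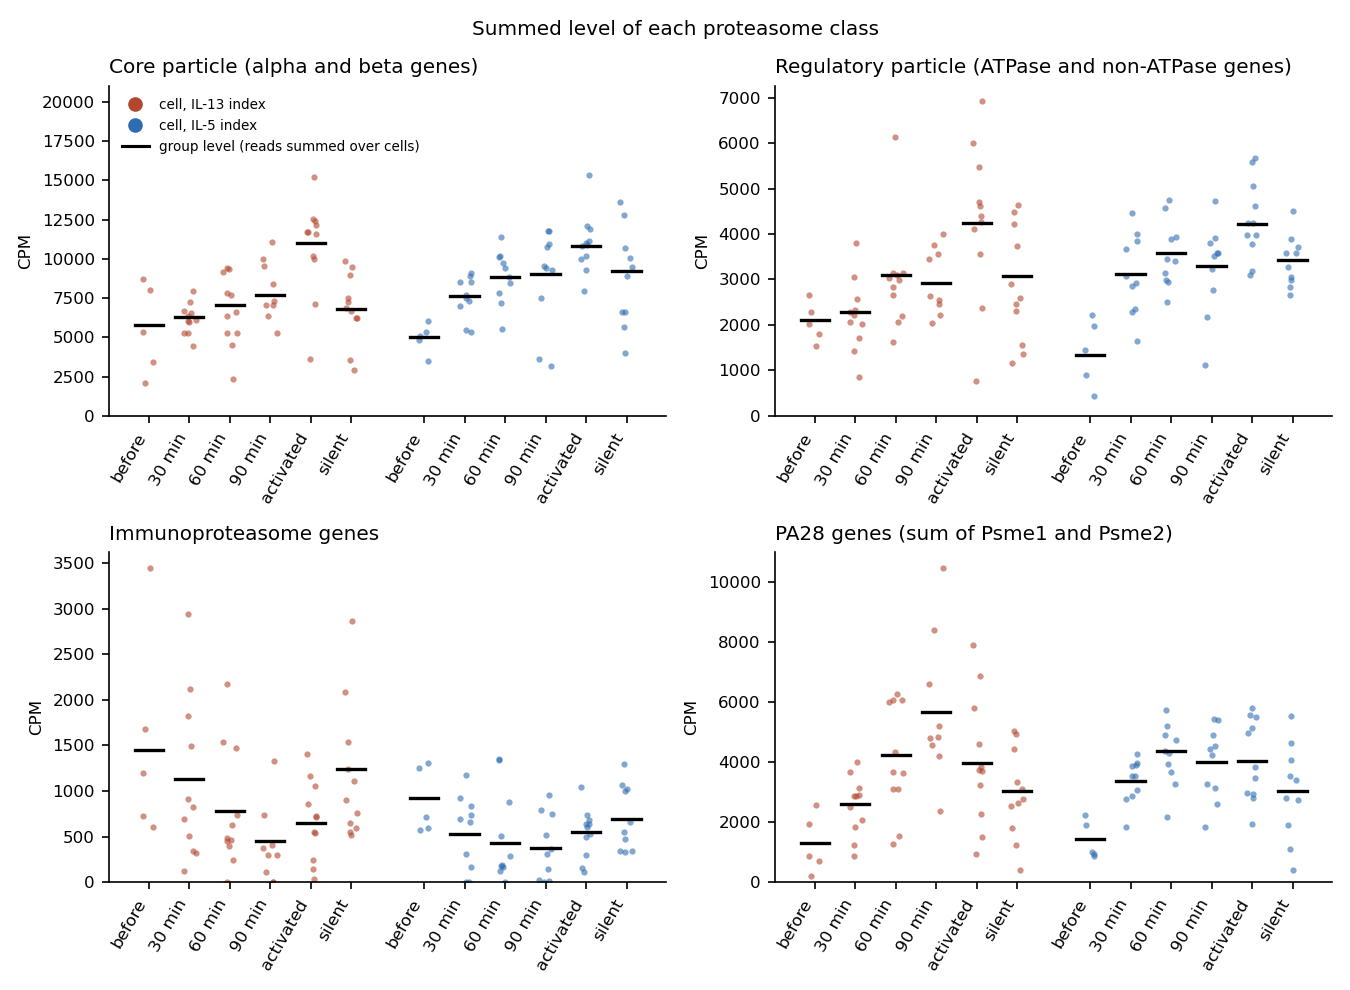
Summed level of each proteasome class in CPM (vertical axis) against the state of the cell (horizontal axis), with points for single cells over the depth limit (IL-13 index on the left, IL-5 on the right) and black bars for the group value. Over both title dates, core, regulatory particle and PA28 group values sit lowest before stimulation (core 5788 and 5012 CPM). On the first date alone the IL-13 core is lower still at 30 min (5539 CPM) and 60 min (5626 CPM). The core sits highest in activated cells (10994 and 10807 CPM). The immunoproteasome genes sit lower in activated (654 and 547 CPM) than in pre-stimulation cells (1454 and 920 CPM).

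Of the 50 genes, 43 averaged 50 CPM or more across the 12 groups, a minimum that 2658 genes of the series reached, and a gene was counted as higher or lower when group levels differed at least 2-fold. In activated against pre-stimulation cells of the IL-13 index, 23 of the 43 (53.5%) were higher, beside 35% of all 2658 genes, and 4 (9.30%) were lower, beside 23.9%. In the IL-5 index 26 (60.5%) were higher, beside 36.2% of all genes, and 2 (4.65%) were lower, beside 24.9%. The members' median log2 ratio was 1.13 in the IL-13 index, where the median over all genes was 0.27, and 1.28 in the IL-5 index, where it was 0.23. Both shares of higher genes were above the background of the same comparison, and both shares of lower genes were below it. The lower genes were Psmb8, Psmb9 and the assembly factors Psmd9 and Psmd10 in the IL-13 index and Psmb9 and Psmb10 in the IL-5 index. The plot of shares past 2-fold places the proteasome genes beside all genes in each comparison.

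**Figure D2:**
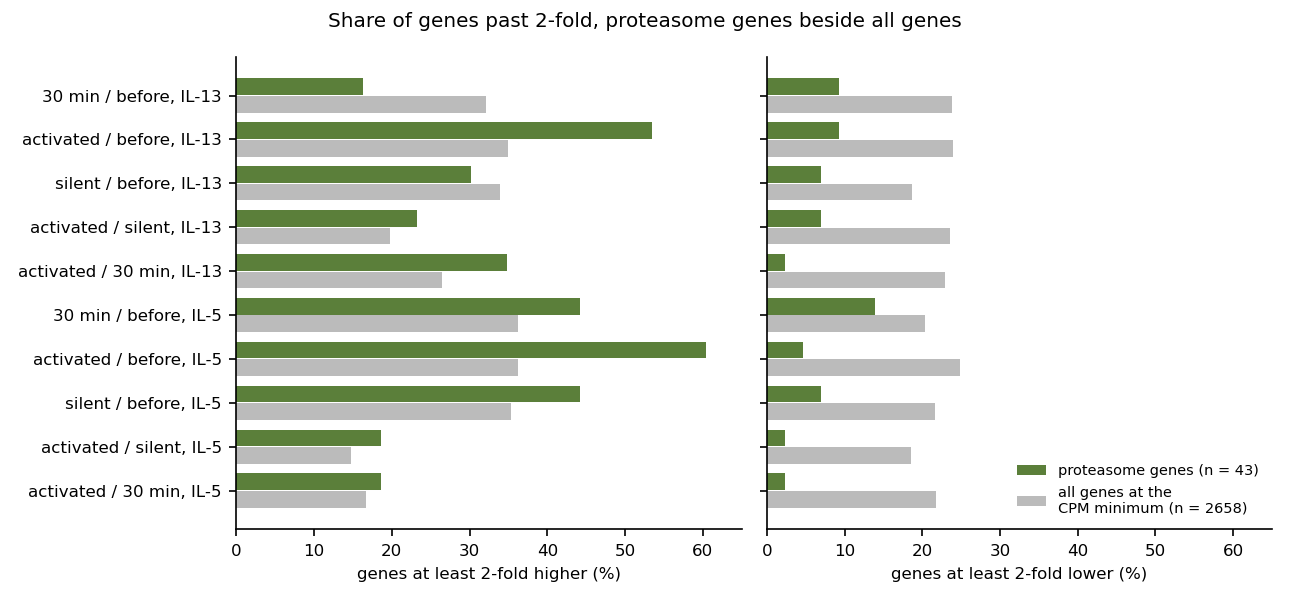
Percent of genes at least 2-fold higher and at least 2-fold lower (horizontal axes) in each of the 10 comparisons (rows), for the 43 proteasome genes and for all 2658 genes at the same minimum. In activated against pre-stimulation cells the share of higher proteasome genes is 53.5% and 60.5% beside 35% and 36.2% of all genes, whereas at 30 min in the IL-13 index it is 16.3% beside 32.1%.

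The genes counted as higher in both indexes numbered 18, which is 78.3% of the IL-13 list and 69.2% of the IL-5 list. Of all 2658 genes 528 were higher in both, or 56.8% of the IL-13 list and 54.8% of the IL-5 list. They were 5 core alpha genes (Psma3 to Psma7), 1 core beta gene (Psmb4), the ATPases Psmc1 and Psmc4, the non-ATPases Psmd1, Psmd2, Psmd3, Psmd7, Psmd11 and Psmd14, the assembly chaperone Psmg3 and the activators Psme1, Psme2 and Psme3. Psmb9 was the 1 gene lower in both, as were 350 of all 2658 genes (13.2%). In activated against silent cells 1 gene, Psmd6, was higher in both, which is 10% and 12.5% of the lists, beside 21.7% and 29.1% over all genes. At 30 min against pre-stimulation cells 4 were (57.1% and 21.1%, beside 53.3% and 47.3%). In silent against pre-stimulation cells 7 were (53.8% and 36.8%, beside 46.2% and 44.4%). In activated against 30 min cells 5 were (33.3% and 62.5%, beside 30.6% and 48.6%).

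The other comparisons reuse the pre-stimulation, activated, silent or 30 min cells, so their values are given side by side and are not independent of those above. At 30 min after onset 7 genes (16.3%) were higher than before stimulation in the IL-13 index, beside 32.1% of all genes, and 4 (9.30%) were lower, beside 23.8%. At the same time in the IL-5 index 19 (44.2%) were higher, beside 36.2%, and 6 (14.0%) were lower, beside 20.4%. The medians were 0.28 beside 0.05 over all genes in the IL-13 index and 0.68 beside 0.23 in the IL-5 index. With TMM scaling the IL-13 counts became 10 higher and 3 lower. On the first title date alone 4 were higher, beside 29.8% of all genes, and 12 were lower, beside 28.1%. Without pre-stimulation replicate 1 the number higher was 15 of 43, and without 30 min replicate 7 the median was −0.031.

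Silent cells, which had been stimulated but did not secrete the index cytokine, also stood above pre-stimulation cells for part of the family. In the IL-13 index 13 genes (30.2%) were higher than before stimulation, beside 33.9% of all genes, and 3 (6.98%) were lower, beside 18.7%, so the share of higher genes was near the background. For the IL-5 index 19 (44.2%) were higher, beside 35.3%, and 3 (6.98%) were lower, beside 21.7%. The median log2 ratios were 0.42 beside 0.25 in the IL-13 index and 0.94 beside 0.26 in the IL-5 index.

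Activated cells were compared with silent cells as well. For the IL-13 index 10 genes (23.3%) were higher in activated cells, beside 19.8% of all genes, and 3 (6.98%) were lower, beside 23.6%, among them Psmb9, whose ratio of −1.66 turned to 0.67 without silent replicate 9. By title date, 16 were higher (beside 25.1%) and 1 lower (beside 21.6%) on the first, with a median of 0.74, whereas 8 were lower (beside 28.7%) on the second, with a median of 0.20. Under the IL-5 index 8 (18.6%) were higher, beside 14.7%, and 1 (2.33%), Psmb9, was lower, beside 18.5%. That ratio of −1.27 became −0.75 without silent replicate 3, and all reads of the gene in IL-5 activated cells came from replicate 6. On the first and second date 3 and 4 genes were lower, beside 19.7% and 24.5%. The medians were 0.47 and 0.31, beside medians of −0.02 and −0.07 over all genes. With TMM scaling the IL-13 counts became 14 higher and 1 lower. Against the 30 min cells, 15 genes (34.9%) were higher in IL-13 activated cells, beside 26.5%, and 1 (2.33%), Psmb9, was lower, beside 22.9%. On the first date 26 were higher, beside 32.3%, and the medians were 1.18 on the first and 0.48 on the second. Among IL-5 cells 8 (18.6%) were higher, beside 16.7%, and 1 (2.33%), again Psmb9, was lower, beside 21.8%. The Psmb9 ratio of −2.70 in that comparison was −0.94, under 2-fold, on the second date. The plot of log2 ratios by gene shows all 43 genes.

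**Figure D3:**
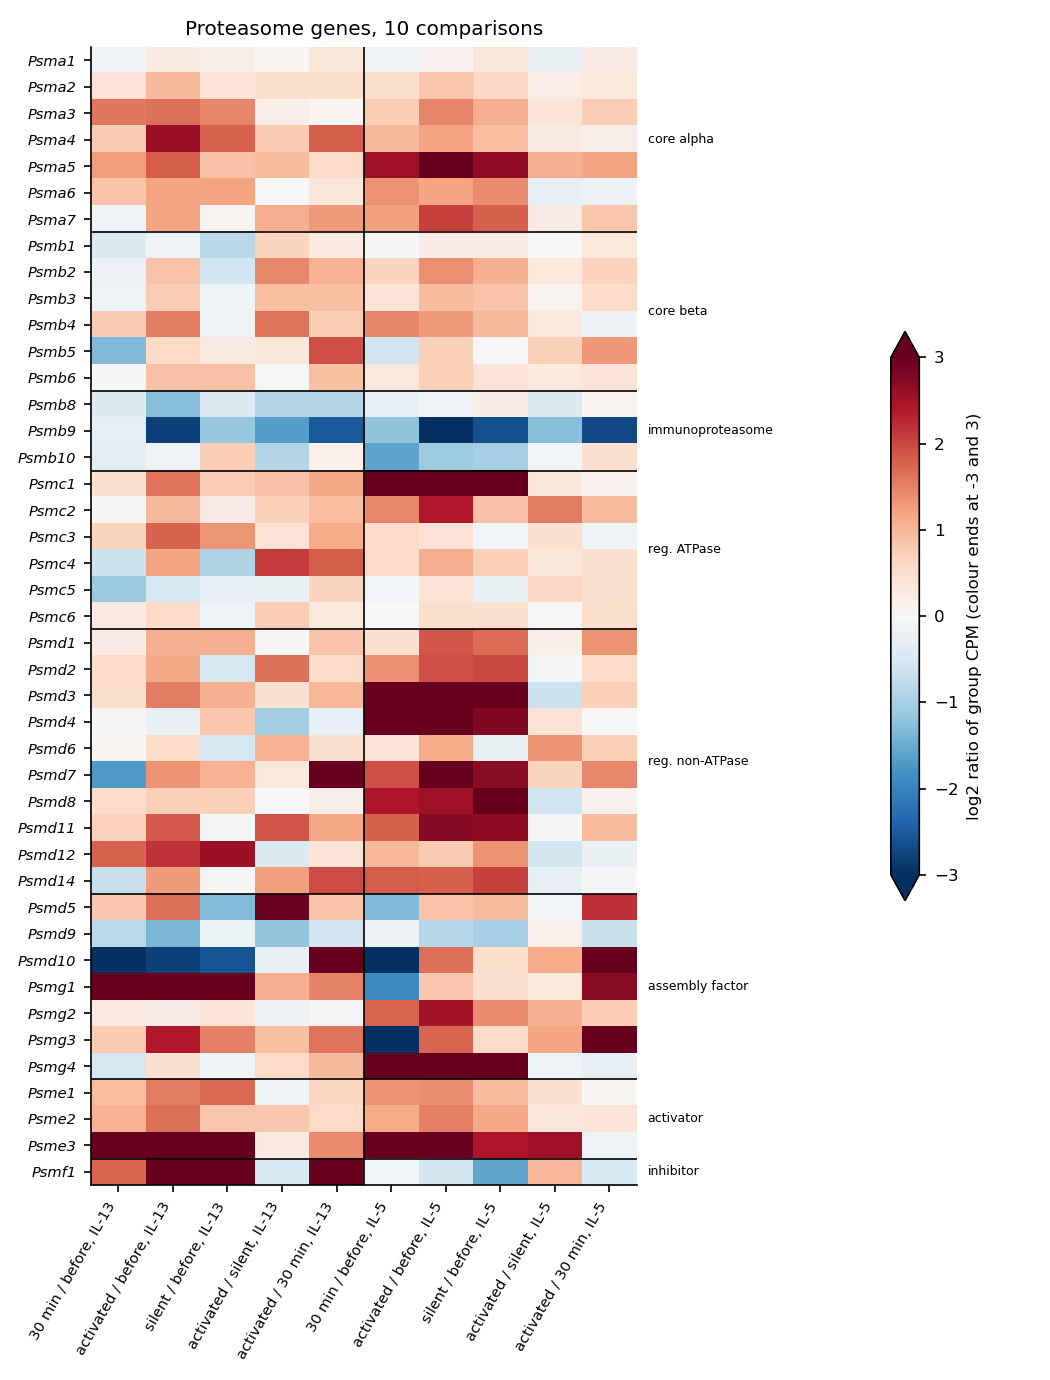
Colours give the log2 ratio of group CPM for each of the 43 proteasome genes (rows, by class) in each of the 10 comparisons (columns, IL-13 on the left and IL-5 on the right), with the scale ending at −3 and 3. Most core, regulatory and activator rows are red against pre-stimulation cells, except in the IL-13 30 min column, where 6 of 13 core genes are above 0. The Psmb9 row is blue in all 10 columns, from −0.28 to −3.91. Its IL-13 activated against silent value turned to 3.60 on the first title date and 0.67 without silent replicate 9. Its IL-13 30 min against pre-stimulation value of −0.28 turned above 0 without pre-stimulation replicate 2.

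Among the core genes, all 13 that reached the minimum were above pre-stimulation levels in IL-5 activated cells, 7 of them at least 2-fold, and 12 of 13 were above in IL-13 activated cells, 6 of them at least 2-fold. A ratio above 0 was found for 54.9% of all genes in the IL-5 and 56.4% in the IL-13 comparison. None was at least 2-fold lower in either. The summed log2 ratio was 0.93 [0.88 to 0.97] for IL-13 and 1.11 [1.07 to 1.15] for IL-5. In the 5 IL-5 pre-stimulation cells the summed core level was 5331, 5088, 4826, 6057 and 3501 CPM, and in the 11 IL-5 activated cells it ran from 7940 through a median of 10860 to 15345 CPM. Every IL-5 activated cell was therefore above every pre-stimulation cell of that index. Among IL-13 cells the pre-stimulation cells were wider apart, at 8719, 2121, 3424, 8029 and 5367 CPM, and 9 of 11 activated cells, which ran from 3629 through 11678 to 15223 CPM, were above all of them. The lowest activated cell, replicate 9, also had the lowest regulatory particle level of its group, at 762 CPM.

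Over both title dates the core level of transition-state cells lay between. It was 6267, 7047 and 7699 CPM at 30, 60 and 90 min in the IL-13 index and 7603, 8848 and 9048 CPM in the IL-5 index. On the first date alone, which all pre-stimulation cells carried, the IL-13 values were 5539, 5626 and 7345 CPM. The first 2 of these were below the 5788 CPM before stimulation. Silent cells were at 6786 and 9206 CPM. The log2 ratio of activated to silent cells was 0.70 [0.67 to 0.72] for IL-13 and 0.23 [0.21 to 0.25] for IL-5, and the cells of the 2 states overlapped in both, with silent cells at 2936 to 9845 and 4010 to 13622 CPM.

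Single core genes differed in size. Psma4, a subunit of the alpha ring, was at 71.6 CPM before stimulation and 423 CPM in IL-13 activated cells, a log2 ratio of 2.56 [2.21 to 2.93]. It had reads in 2 of 5 pre-stimulation cells and in all 11 activated cells. Its level in IL-13 silent cells was 245 CPM, a log2 ratio of 1.77 [1.42 to 2.15] to the same pre-stimulation cells. Without pre-stimulation replicate 5 these ratios were 3.50 and 2.71. Psma3, also of the alpha ring, was already at 734 CPM at 30 min in the IL-13 index, against 244 CPM before stimulation (1.59 [1.39 to 1.79], or 2.76 without pre-stimulation replicate 1).

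Psmb5, which encodes the catalytic subunit with chymotrypsin-like activity, was lower at 30 min than before stimulation in the IL-13 index, at 123 and 307 CPM (−1.32 [−1.56 to −1.09]). Without pre-stimulation replicate 4 this ratio was −0.54, under 2-fold, and without 30 min replicate 10 it was −2.38. The gene stood at 178, 263, 465 and 370 CPM in the 60 min, 90 min, activated and silent cells of that index. Activated cells were thus 1.92 [1.75 to 2.10] above 30 min cells on the log2 scale, and 2.98 without that 30 min cell. In the IL-5 index it ran 338, 227, 395, 472, 558 and 339 CPM over pre-stimulation, 30 min, 60 min, 90 min, activated and silent cells, with the 30 min cells lowest there too. Psmb6, a second catalytic subunit, was at 495, 483, 553, 509, 907 and 912 CPM in the same order in the IL-13 index and at 455, 571, 866, 715, 744 and 595 CPM in the IL-5 index. Psmb7, the third, ranged from 4.95 to 20.6 CPM over the 12 groups, with a mean of 12.0 CPM, and stayed below the minimum. The genome holds near-identical copies of several of these genes, among them Psmb5-ps, Psmb6-ps, Psmb6-ps2 and Psmb7-ps2, and 28.7% of read entries were set aside as not uniquely aligned, so the levels of Psmb5, Psmb6 and Psmb7 are uncertain.

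In the regulatory particle, all 16 genes at the minimum were above pre-stimulation levels in IL-5 activated cells, 12 of them at least 2-fold, and 14 of 16 were above in IL-13 activated cells, 10 of them at least 2-fold, against the same 54.9% and 56.4% of all genes. The summed log2 ratio was 1.01 [0.94 to 1.08] for IL-13 and 1.65 [1.58 to 1.72] for IL-5. Levels at 30, 60 and 90 min were 2278, 3097 and 2932 CPM in the IL-13 index and 3118, 3572 and 3286 CPM in the IL-5 index. On the first title date alone the IL-13 level at 30 min was 1981 CPM, below the 2110 CPM before stimulation. The 5 IL-5 pre-stimulation cells had 2219, 904, 1450, 1985 and 430 CPM. All 11 IL-5 activated cells (3089 to 5671 CPM, median 4237) and all 10 IL-5 silent cells over the depth limit (2667 to 4515 CPM, median 3425) were above them, so that the groups did not overlap. In the IL-13 index the pre-stimulation cells had 2665, 2293, 1791, 1541 and 2023 CPM, and 9 of 11 activated cells (762 to 6931 CPM, median 4393) were above all of them.

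The 2 parts of the particle were summed separately for activated and silent cells. The ATPases, the ring that unfolds substrates, exceeded silent cells on the log2 scale by 0.75 [0.69 to 0.81] for IL-13 and 0.66 [0.60 to 0.71] for IL-5. For the non-ATPases the values were 0.23 [0.18 to 0.29] and 0.036 [−0.011 to 0.083]. The first was 0.48 without silent replicate 10, and it turned with the title date, activated and silent cells being at 2628 and 1405 CPM on the first date and 1858 and 2067 CPM on the second. No test of the difference between the parts was made.

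Psmc1, an ATPase subunit, had 1 read in the 5 IL-5 pre-stimulation cells and 1283, 1486 and 944 reads in the 30 min, activated and silent cells. That read came from replicate 3. The log2 ratios over this read, without the floor of 3 reads used for groups at 0, were 8.77 [6.29 to 14.1], 8.91 [6.43 to 14.2] and 8.54 [6.06 to 13.8]. For the IL-13 index it was at 134 CPM before stimulation and 417 CPM in activated cells, so the near absence was seen in only 1 of the 2 sets of pre-stimulation cells. Psmd3, a scaffold subunit, had 0 reads in IL-5 pre-stimulation cells and was 33.8-fold higher in activated and 52.7-fold higher in silent cells, taking 3 reads over the group as the floor. Psmd4, a ubiquitin receptor, was at 26.4 CPM before stimulation and 249 CPM at 30 min in the IL-5 index (3.24 [2.73 to 3.80]). This ratio was 4.90 without pre-stimulation replicate 1 and 1.28 at its lowest under another setting. Psmd12, a subunit of the lid, was at 78.8 CPM before stimulation in the IL-13 index, all of it from replicate 2, at 269 CPM at 30 min (1.77 [1.43 to 2.13]) and at 478 CPM in silent cells (2.60 [2.27 to 2.95], or 1.96 without silent replicate 10).

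Activated cells were also compared with silent and 30 min cells gene by gene. Among IL-13 cells Psmc4, an ATPase, was at 390 CPM in activated and 91.0 CPM in silent cells (2.10 [1.90 to 2.30], or 2.88 without silent replicate 9), and Psmd11, a lid subunit, at 279 and 75.9 CPM (1.88 [1.65 to 2.10]). Psmd4 went the other way, at 170 and 349 CPM (−1.04 [−1.19 to −0.88]). Psmd7 and Psmd14, which together form the deubiquitinating pair of the lid, were above 30 min levels by 3.06 [2.76 to 3.38] and 1.96 [1.74 to 2.18], the first being 4.33 without 30 min replicate 7. Among IL-5 cells Psmc2, an ATPase, was at 609 CPM in activated and 211 CPM in silent cells (1.53 [1.40 to 1.66]), and Psmd6, a lid subunit, at 336 and 133 CPM (1.34 [1.18 to 1.51]). Of the genes named here against silent cells, only Psmd6 passed 2-fold in both indexes. Psmc4, Psmd11 and Psmd4 stayed under 2-fold in the IL-5 index, and Psmc2 in the IL-13 index.

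The assembly factors, chaperones that help build the core and the base of the regulatory particle, were less even. Their summed level was 722 CPM before stimulation and 1138 CPM in IL-13 activated cells, and 404 and 977 CPM in the IL-5 index. Psmg1, a chaperone of the alpha ring, had 0 reads in IL-13 pre-stimulation cells and 883 in activated cells, 88.9-fold higher over a floor of 3 reads. With the pre-stimulation cells of both indexes this log2 ratio fell to 1.91. In the IL-5 index Psmg1 was at 132 CPM before stimulation and 232 CPM in activated cells. Psmg4, another chaperone of core assembly, had 0 reads in IL-5 pre-stimulation cells. Over a floor of 3 reads it was 62.5-fold higher in activated and 69.6-fold higher in silent cells. With the pre-stimulation cells of both indexes these log2 ratios fell to 1.02 and 1.18. In the IL-13 index Psmg4 stayed under 2-fold in both states against pre-stimulation cells. Psmg3 and Psmg1 were above 30 min levels in IL-5 activated cells by 4.80 [4.21 to 5.45] and 2.71 [2.44 to 2.99]. Leaving out 30 min replicate 3 for Psmg3 and replicate 1 for Psmg1 gave 7.66 and 3.69. Psmd9, a chaperone of the base, was lower in IL-5 silent than pre-stimulation cells, at 57.7 and 115 CPM (−1.00 [−1.33 to −0.67], or −0.22 without pre-stimulation replicate 4).

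Psmd5, another chaperone of the base, rested on 1 cell. It was at 254 CPM in IL-13 activated and 32.9 CPM in silent cells, a log2 ratio of 2.95 [2.63 to 3.29], but 72.9% of the reads in activated cells came from replicate 9, and without that cell the ratio was 1.16 (3.77 without silent replicate 8). On the first title date alone it was −0.83. For the IL-5 index it was at 61.6 CPM in activated and 13.5 CPM in 30 min cells (2.19 [1.73 to 2.67], or 6.05 without 30 min replicate 6).

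Psme1 and Psme2, the PA28 genes, reached higher levels in every stimulated state than before stimulation. They lie on chromosome 14 of GRCm38, with Psme1 at 55578123 to 55581529 on the plus strand and Psme2 at 55587441 to 55591113 on the minus strand, 5911 bases apart with Emc9 between them. Their promoter windows, and those of the neighbouring immunoproteasome genes Psmb8 and Psmb9, are shown because these 4 genes are all known interferon targets, yet Psme1 and Psme2 were at least 2-fold higher and Psmb9 at least 2-fold lower in activated than in pre-stimulation cells of both indexes, while Psmb8 was at least 2-fold lower in the IL-13 index alone. Each window is 250 bases before to 50 after a RefSeq transcription start (GRCm38.p6), printed 5′ to 3′ on the gene's own strand, with matches to the searched motifs in capitals. Psme1 is at chr14:55578244-55578543, Psme2 at chr14:55591052-55591351 (the first of 2 listed windows), Psmb8 at chr17:34197945-34198244 and Psmb9 at chr17:34187281-34187580. The Psme1, Psmb8 and Psmb9 windows lie within the annotated gene, so the bases before its annotated start were not searched.
Psme1: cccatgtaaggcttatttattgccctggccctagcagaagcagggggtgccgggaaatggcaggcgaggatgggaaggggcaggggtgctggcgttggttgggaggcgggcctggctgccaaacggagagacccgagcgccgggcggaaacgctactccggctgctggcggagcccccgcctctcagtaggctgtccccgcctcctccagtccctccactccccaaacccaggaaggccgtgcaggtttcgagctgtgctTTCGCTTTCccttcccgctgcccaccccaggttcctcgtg
Psme2: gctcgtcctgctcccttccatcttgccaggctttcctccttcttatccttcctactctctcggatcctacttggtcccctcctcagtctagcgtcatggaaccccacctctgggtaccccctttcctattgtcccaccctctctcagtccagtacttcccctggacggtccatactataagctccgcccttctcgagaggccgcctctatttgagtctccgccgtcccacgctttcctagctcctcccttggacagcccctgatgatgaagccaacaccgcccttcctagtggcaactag
Psmb8: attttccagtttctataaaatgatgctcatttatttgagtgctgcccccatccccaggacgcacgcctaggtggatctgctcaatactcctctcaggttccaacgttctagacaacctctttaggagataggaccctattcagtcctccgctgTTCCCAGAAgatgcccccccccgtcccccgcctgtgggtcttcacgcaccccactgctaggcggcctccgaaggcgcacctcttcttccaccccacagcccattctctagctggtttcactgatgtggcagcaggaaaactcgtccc
Psmb9: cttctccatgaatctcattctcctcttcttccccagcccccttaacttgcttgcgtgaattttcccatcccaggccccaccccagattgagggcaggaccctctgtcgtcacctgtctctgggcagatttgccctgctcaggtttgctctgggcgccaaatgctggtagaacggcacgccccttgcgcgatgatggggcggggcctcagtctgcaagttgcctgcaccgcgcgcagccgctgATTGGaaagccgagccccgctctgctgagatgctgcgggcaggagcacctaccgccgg

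The motifs searched, on both strands, were TGACNNNGC, TTCNNNGAA, GAAANNGAA and CCAAT, where N is any base. The Psme1 window held GAAANNGAA on the reverse strand, the Psmb8 window TTCNNNGAA at 97 bases before the start and the Psmb9 window CCAAT on the reverse strand, whereas the Psme2 window held none of them. Windows were listed for 42 of the 50 genes, of which 7 (16.7%) held GAAANNGAA, beside 9.76% of 27025 genes. TGACNNNGC was in 6 (14.3%, beside 14% of all genes), TTCNNNGAA in 3 (7.14%, beside 9.55%) and CCAAT in 15 (35.7%, beside 41.1%). A match is a description of the letters only.

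Psme2 was at 812 CPM before stimulation, then at 1679, 2806 and 3981 CPM at 30, 60 and 90 min, in the IL-13 index. It was at 2545 CPM in activated and 1447 CPM in silent cells. Under the IL-5 index it ran 847, 1844, 2607, 2612, 2414 and 1869 CPM in the same order. Psme1 ran 485, 920, 1422, 1699, 1428 and 1586 CPM in the IL-13 index and 607, 1543, 1770, 1394, 1608 and 1163 CPM in the IL-5 index. Both genes were thus lowest before stimulation in both indexes, and over both title dates their highest group value was at 60 or 90 min. That order turned with the date in the IL-13 index, where the 2 genes summed were at 3528, 4049 and 5664 CPM in 60 min, 90 min and activated cells of the first date and at 4579, 6251 and 2873 CPM in those of the second. The log2 ratio of activated to pre-stimulation cells, for the 2 genes summed, was 1.61 [1.53 to 1.70] for IL-13 and 1.47 [1.40 to 1.54] for IL-5, and at 30 min it was already 1.00 [0.92 to 1.09] and 1.22 [1.15 to 1.29].

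By cell, Psme1 was at 712, 949, 884, 396 and 0 CPM in the IL-5 pre-stimulation cells and at 966 to 2855 CPM (median 1170) in the activated cells, which did not overlap. In the IL-13 index the pre-stimulation cells had 544, 5.92, 698, 1049 and 190 CPM, and activated cells had 9.65 to 2369 CPM (median 1659), which overlapped. Psme2 was at 285, 959, 1352, 467 and 934 CPM in IL-5 pre-stimulation cells, against 944 to 3803 CPM (median 2699) in activated cells, and at 1410, 190, 6.07, 1517 and 681 CPM in IL-13 pre-stimulation cells, against 643 to 5519 CPM (median 2048). The highest activated cells exceeded every pre-stimulation cell for both genes, and apart from Psme1 in the IL-5 index the lowest lay within the range of the pre-stimulation cells.

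Activated and silent cells of the IL-13 index were not apart for PA28 in the same way on both title dates. The summed level was 5664 CPM in activated and 2406 CPM in silent cells on the first date, and 2873 and 3363 CPM on the second, where the ratio turned to −0.23. Among IL-5 cells activated cells were above silent cells on both, at 4299 and 2848 CPM on the first and 3816 and 3236 CPM on the second. The plot of PA28 and immunoproteasome genes by cell shows this spread.

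**Figure D4:**
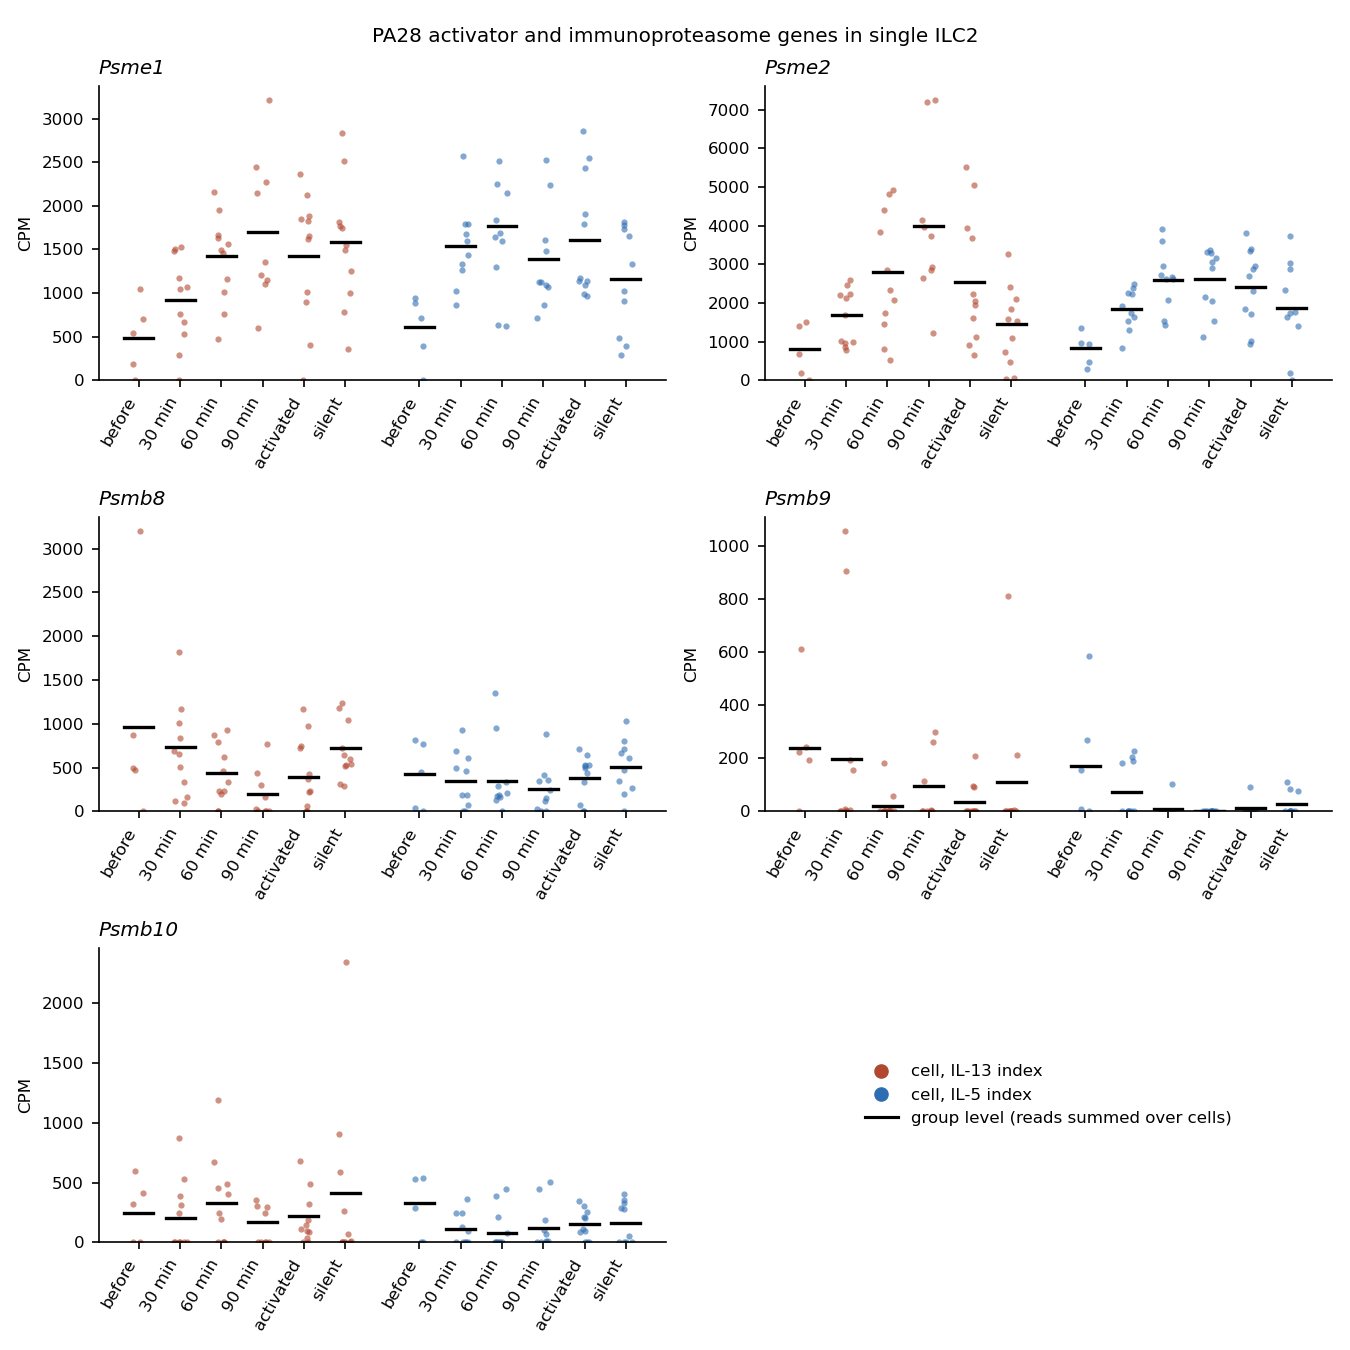
CPM (vertical axes) of PA28 and immunoproteasome genes in single cells over the depth limit (points), by state (horizontal axes) and index (colours), with black bars for the group value. Psme2 group values go from 812 to 3981 CPM at 90 min in the IL-13 index, while Psmb9 stands at 0 CPM at 90 min in the IL-5 index.

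Of the other activators, Psme3, which encodes the nuclear activator PA28 gamma, had 0 reads in IL-13 pre-stimulation cells and 292 in activated cells. It was 29.4-fold higher over a floor of 3 reads. In the IL-5 index it had 5 reads before stimulation and 503 at 30 min (5.10 [3.87 to 6.73] on the log2 scale), and was at 130 CPM in activated and 22.2 CPM in silent cells (2.55 [2.19 to 2.94], or 3.54 without silent replicate 4). Psme4 and Psme2b, a near copy of Psme2, had means of 10.5 and 9.91 CPM and were under the minimum, as was Psmd13 at 28.6 CPM. Psmf1, the inhibitor, differed between the indexes. In the IL-13 index it had 0 reads before stimulation and was 28.0-fold higher in activated cells over a floor of 3 reads. In the IL-5 index it had a log2 ratio of −0.56, which turned to 4.57 without pre-stimulation replicate 5. Psma8 had 0 reads in the series, Psmb11 had 7 and Psmc3ip had 45.

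Of the immunoproteasome genes, Psmb9 was at least 2-fold lower in activated than in pre-stimulation cells of both indexes, Psmb8 in the IL-13 index and Psmb10 in the IL-5 index. The Psmb10 ratio of −1.06 was −0.72 without pre-stimulation replicate 2, and that of Psmb8 likewise fell under 2-fold without 1 cell. Psmb9, which encodes the counterpart of the Psmb6 product, lies 9956 bases from Psmb8 on chromosome 17 of GRCm38 (Psmb9 at 34181987 to 34187764 on the minus strand, Psmb8 at 34197721 to 34201454 on the plus strand) with Tap1 between them. Psmb9 was at 240 CPM before stimulation and 34.4 CPM in IL-13 activated cells (−2.80 [−3.14 to −2.46]), and at 169 and 11.3 CPM in the IL-5 index (−3.91 [−4.42 to −3.42]). Leaving out 1 cell gave −3.56 (activated replicate 5) to −2.22 (pre-stimulation replicate 2) for IL-13 and −7.52 (activated replicate 6) to −2.83 (pre-stimulation replicate 5) for IL-5. It had reads in 4 of 5 pre-stimulation cells of each index, in 3 of 11 IL-13 activated cells and in 1 of 11 IL-5 activated cells. The median depths were 266402 and 325825 gene reads in activated cells and 168778 and 264798 in pre-stimulation cells. By cell, the pre-stimulation values were 224, 610, 194, 243 and 0 CPM in the IL-13 index and 270, 9.79, 155, 0 and 584 CPM in the IL-5 index.

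Transition-state cells lay mostly below pre-stimulation cells as well. Over 30, 60 and 90 min Psmb9 was at 197, 19.6 and 94.3 CPM in the IL-13 index and at 72.9, 7.61 and 0 CPM in the IL-5 index. Without IL-13 pre-stimulation replicate 2, the IL-13 level at 30 min was above that before stimulation. The 0 at 90 min allows a level of up to 2.02 CPM by counting. At 30 min in the IL-5 index the log2 ratio to pre-stimulation was −1.21 [−1.48 to −0.94], which became −0.14 without pre-stimulation replicate 5. Psmb9 was also below pre-stimulation levels in silent cells, at 109 and 27.1 CPM, by −1.14 [−1.39 to −0.88] for IL-13 and −2.64 [−3.03 to −2.27] for IL-5. In IL-13 silent cells 82.3% of its reads came from replicate 9, without which the ratio was −3.47, while without pre-stimulation replicate 2 it was −0.56. The IL-5 silent ratio was −1.57 without pre-stimulation replicate 5. IL-13 activated cells were below 30 min cells by −2.52 [−2.83 to −2.22], or −1.69 without 30 min replicate 7 and −3.28 without activated replicate 5.

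Psmb8, the counterpart of Psmb5, gave a less certain picture. It was at 966 CPM before stimulation in the IL-13 index and at 731, 434, 195, 396 and 725 CPM in 30 min, 60 min, 90 min, activated and silent cells. The log2 ratio of activated to pre-stimulation cells was −1.29 [−1.41 to −1.16], but 57.9% of the pre-stimulation reads came from replicate 4, at 3200 CPM beside 500, 474, 0 and 875 CPM in the others, and without it the ratio was −0.31. For the IL-5 index Psmb8 was at 425, 351, 349, 255, 380 and 501 CPM over the same 6 states, a log2 ratio of −0.16 in activated cells. That ratio turned to 0.31 with TMM scaling and was −0.81 at its lowest under another setting. Psmb10, the counterpart of Psmb7, was at 248, 200, 326, 166, 224 and 412 CPM in the IL-13 index and at 326, 110, 75.5, 122, 156 and 164 CPM in the IL-5 index. The largest part of its IL-13 silent reads, 69.0%, came from 1 cell.

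Summed over the 3 genes, the log2 ratio of activated to pre-stimulation cells was −1.15 [−1.25 to −1.05] for IL-13 and −0.75 [−0.86 to −0.64] for IL-5. Without IL-13 pre-stimulation replicate 4 the first became −0.66. Over the other scalings, title dates and sets of cells the ratios ranged from −1.22 to −0.82 for IL-13 and from −1.08 to −0.28 for IL-5, where −0.28 came with TMM scaling. Silent cells were at 1246 and 693 CPM, above activated cells, except on the second title date of the IL-5 index, where silent and activated cells were at 550 and 588 CPM. Over both title dates the lowest group values were at 90 min, at 456 and 377 CPM. On the first date of the IL-13 index activated cells were at 750 CPM, beside 756 CPM at 90 min. On the second date of the IL-5 index 60 min cells were at 219 CPM, beside 296 CPM at 90 min. Cells of the states overlapped throughout, with IL-5 pre-stimulation cells at 720, 577, 1258, 1303 and 593 CPM and activated cells at 119 to 1050 CPM.

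The reads of Psmb8, Psmb9 and Psmb10 were also taken as a share of the reads of Psmb5 to Psmb10, and changes of this share between groups were read rather than its level. The share was 64.3% [62.2 to 66.3] before stimulation in the IL-13 index and 64.9%, 51.0% and 36.9% at 30, 60 and 90 min. It was 32.0% [30.9 to 33.2] in activated and 49.0% [47.8 to 50.2] in silent cells. Under the IL-5 index it was 53.5% [51.4 to 55.7] before stimulation, 39.8%, 25.3% and 23.9% over the 3 times, 29.4% [28.3 to 30.5] in activated and 42.0% [40.7 to 43.4] in silent cells. Leaving out any 1 cell kept the pre-stimulation share at 59.0% or above in the IL-13 index and 49.3% or above in the IL-5 index, and the activated share at 33.8% or below and 30.7% or below. The 60 min share turned with the title date. It was 69.4% on the first date and 42.9% on the second in the IL-13 index, above and below the pre-stimulation share, and 36.1% and 14.3% in the IL-5 index, above and below the activated share, which was 29.5% and 29.3% on these dates.

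By cell the IL-5 shares ran from 39.8% through 48.3% to 97.8% before stimulation and from 12.5% through 31.1% to 40.4% in activated cells, which overlapped by a narrow margin. IL-13 activated cells ran from 2.26% to 100%, with a median of 27.6%, beside 45.0% to 98.6% with a median of 53.5% before stimulation. Of the single pairs, Psmb9 with Psmb6 went from 32.6% to 3.66% in the IL-13 index and from 27.1% to 1.49% in the IL-5 index between pre-stimulation and activated cells. Leaving out 1 cell moved the pre-stimulation shares to between 21.2% and 49.1% and between 12.7% and 38.3%, and kept the activated shares at 4.55% or below and 1.71% or below. Psmb8 with Psmb5 went from 75.9% to 46.0% and from 55.7% to 40.5%, and in the IL-5 index this went with Psmb5 at 338 and then 558 CPM while Psmb8 was at 425 and then 380 CPM. The pair of Psmb10 and Psmb7 stayed between 82.7% and 98.5% in all groups, where few Psmb7 reads were counted.

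**Figure D5:**
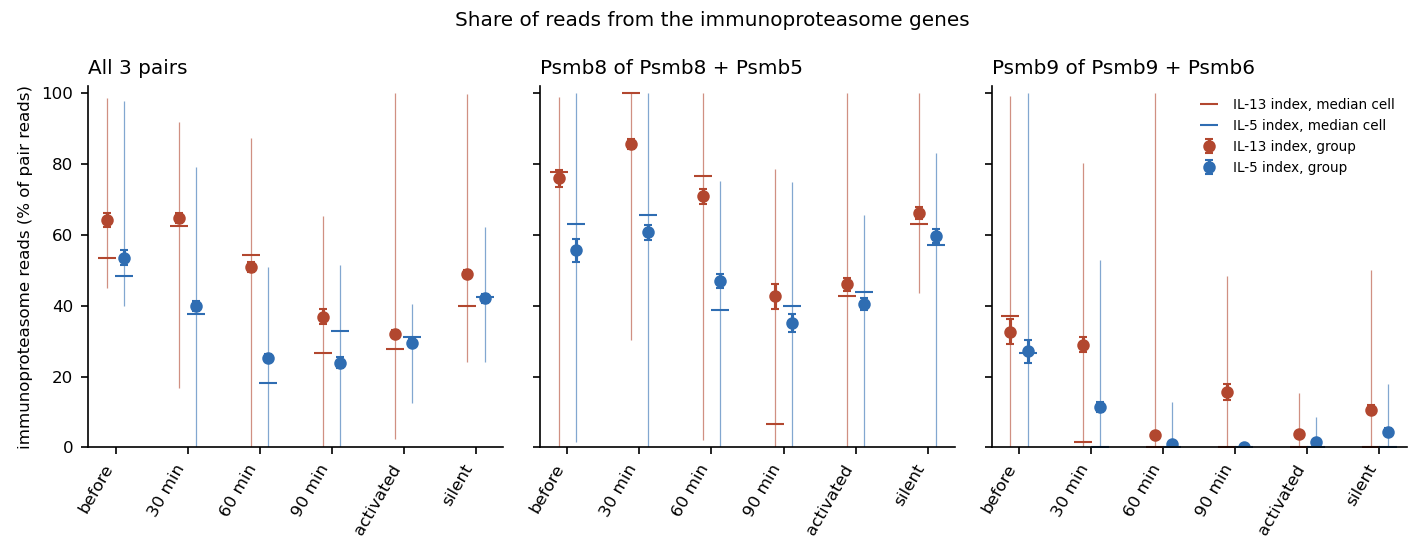
Reads of the immunoproteasome genes as a percent of the reads of each pair (vertical axis) by state (horizontal axis) and index (colours), with circles for the group share and its exact 95% interval, thin lines for the range over cells past the depth limit and dashes for their median. For Psmb9 with Psmb6 the share goes from 32.6% and 27.1% before stimulation (21.2% to 49.1% and 12.7% to 38.3% without 1 cell) to 3.66% and 1.49% in activated cells.

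More proteasome genes were detected in an activated cell. After thinning each of 113 cells to 100000 gene reads, which left out 7 shallower cells, the median number of the 50 genes with a read was 25 before stimulation and 39 in IL-13 activated cells and 22 and 40 in the IL-5 index. Silent cells had medians of 29 and 35.5, and unthinned medians were 25 and 40 in the IL-13 index and 27 and 41 in the IL-5 index. The number of all genes detected was higher too, with medians of 1918 and 2924 in the IL-13 index and 2236 and 2999 in the IL-5 index, and its part in the result was not tested.

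Other genes of the pathway were taken from a list of 32, of which 31 were found and 18 reached the minimum. In activated against pre-stimulation cells 4 of the 18 (22.2%) were higher and 7 (38.9%) lower in the IL-13 index, beside 35% and 23.9% of all genes. Among IL-5 cells 5 (27.8%) were higher and 2 (11.1%) lower, beside 36.2% and 24.9%. With TMM scaling these counts became 5 higher and 2 lower in the IL-13 index and 7 higher and 0 lower among IL-5 cells. As first scaled, the median ratios were −0.41 and −0.063, beside 0.27 and 0.23 over all genes. Several of these genes stood differently in the 2 indexes. Uchl5, a deubiquitinase bound to the proteasome, was above pre-stimulation levels by 1.48 [1.11 to 1.87] for IL-13 and 1.41 [1.05 to 1.79] for IL-5 (4.29 without IL-13 pre-stimulation replicate 1 and 2.42 without IL-5 pre-stimulation replicate 4), and Adrm1, the ubiquitin receptor that recruits it, by 1.39 [0.94 to 1.88] in the IL-13 index (2.17 when pre-stimulation replicate 5 was left out), while it was at 90.7 and 95.7 CPM in the IL-5 index. Usp14, another bound deubiquitinase, was above silent cells in IL-5 activated cells by 2.18 [1.85 to 2.52] but below them in the IL-13 index, at 43.5 and 121 CPM (−1.48 [−1.78 to −1.19]). Without silent replicate 8 the first was 4.13, and without silent replicate 6 the second was −0.042. Pomp, the chaperone of core maturation, was at 759 CPM before stimulation, 317 CPM at 30 min and 919 CPM in IL-13 activated cells, and at 383, 523 and 742 CPM in the IL-5 index, without the lower level at 30 min. Ubb, a ubiquitin gene, stood at −0.99 [−1.07 to −0.90] in the IL-13 and −1.09 [−1.16 to −1.02] in the IL-5 index, activated against pre-stimulation cells. Uba1, which activates ubiquitin, went from 0 to 394 reads in the IL-13 index and from 313 to 117 CPM in the IL-5 index (−1.42 [−1.62 to −1.22], which turned to 0.33 without pre-stimulation replicate 2). Ubqln1, a shuttle for ubiquitinated proteins, was at 2.39 [1.22 to 3.87] in the IL-13 index and went from 0 to 251 reads in the IL-5 index, and Zfand5, a proteasome-binding protein, was at 2.40 [1.49 to 3.49] in the IL-5 index but at −3.65 [−4.82 to −2.62] in the IL-13 index, with leave-one-out ranges of 1.89 to 3.97 and −5.26 to −2.85.

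Among the genes of interferon response and peptide presentation, 4 of 5 were at least 2-fold lower in IL-13 activated than pre-stimulation cells and 0 of 5 in IL-5 activated cells, beside 23.9% and 24.9% of all genes. With TMM scaling, which raises every IL-13 ratio of this comparison by 0.24, the first count was 1 of 5, and it was 4 of 5 with DESeq2 size factors. B2m, the light chain of MHC class I, was at −1.06 [−1.08 to −1.03] and H2-D1, a class I heavy chain, at −1.11 [−1.22 to −1.00] in the IL-13 index, and H2-D1 was also below silent cells, by −1.21 [−1.29 to −1.12]. In the IL-5 index the activated against pre-stimulation values were −0.18 for B2m and −0.19 for H2-D1. TMM scaling raises every IL-5 ratio of this comparison by 0.47 and turned both above 0. Tapbp, which loads class I with peptide, was at 398 CPM before stimulation and 30.2 CPM in IL-13 silent cells (−3.72 [−4.09 to −3.37], or −2.43 without pre-stimulation replicate 4 and −5.10 without silent replicate 5), but at 18.1 and 40.1 CPM in the IL-5 index (1.14 [0.48 to 1.87], which turned to −0.36 without silent replicate 4). Irf1, Nlrc5, Tap1 and Tap2 were under the minimum and could not be followed at this depth.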

How the data were processed

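Counts of reads per gene in 120 single-cell libraries (SMART-Seq v4 3' DE kit) were deposited as made by the authors, who aligned read 1 with TopHat to GRCm38 and counted with HTSeq. The submitters' processing notes name TopHat2 and the builds GRCh38 and mm10. The strand setting and annotation release are not given in the sources used here, so overlapping and antisense genes cannot be told apart. Of all entries 62.0% were in genes, 7.42% had no feature, 1.86% were ambiguous and 28.7% were not uniquely aligned, and these last 3 were left out of library sizes. The added spike-in RNA was not used here. Near-identical gene copies make the counts of some members uncertain.

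Symbols and positions came from the GENCODE annotation of GRCm38, which named 45143 of 46078 identifiers. The reads of all cells in a group were added up and expressed per 1000000 gene reads. A group under 3 reads was set to 3 reads over the group in ratios and in counts of genes past 2-fold, but a ratio printed for a group with 1 to 3 reads was taken over those reads. Intervals were exact Poisson for levels and exact binomial for ratios and shares. As each group was 1 sample, no test was made. The scripts (Python 3.11.15, numpy 2.4.6, pandas 2.3.3, scipy 1.17.1) were tested on simulated data. TMM factors came from edgeR 4.0.16 and size factors from DESeq2 1.42.0, on group sums.

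Described with values in every group were the 3 immunoproteasome genes, Psmb5, Psmb6, Psme1 and Psme2, while Psmb7 was described by its range over the groups. In each comparison up to 3 of the largest higher and lower members were named that passed 2-fold, had a read in at least 70% of the cells of the higher group and kept their direction without any 1 cell. Pathway genes were named by the same rule. Further genes named, such as the members of a small count, were chosen after their values were seen. The members and lists were chosen with earlier results of these data known. Alternatives covered scaling, the mean of the cells' own CPM, the CPM minimum, the fold threshold, title date, shallow cells, the pre-stimulation cells used and each cell in turn. Some genes of the pathway lists are not reported here.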

Additional observations from a re-analysis of the deposited data

Results flagged for a closer look

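In a group of 5 pre-stimulation cells a value was marked when 1 cell stood apart from the other 4 by more than Dixon's 95% limit. For normally distributed values that limit marks about 1 in 20 groups. A gene read in only 1 of the 5 cells is marked in any case, so the number marked cannot be set against this rate. Of 56 groups checked, 15 were marked, and none of them was weighed further. In the IL-13 index they were Psmb8 in replicate 4 at 3200 CPM, Psmd14 in replicate 4 at 510 CPM, Psmc2 in replicate 3 at 1226 CPM, Psmd12 in replicate 2 at 450 CPM, Psmd6 in replicate 2 at 539 CPM, Psmd3 in replicate 1 at 134 CPM and Psmg3 in replicate 1 at 154 CPM.

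In the IL-5 index they were Psmc1 in replicate 3 at 3.78 CPM, Psmd11 in replicate 3 at 144 CPM, Psmd5 in replicate 3 at 155 CPM, Psmc2 in replicate 4 at 379 CPM, Psmd14 in replicate 4 at 327 CPM, Psmd4 in replicate 1 at 172 CPM, Psmg3 in replicate 1 at 495 CPM and Psme3 in replicate 2 at 16.3 CPM. In all of these the marked cell was the highest of its 5, and many of the others held no read of the gene.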

How the results depend on the processing

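No paired analysis was possible because the replicate numbers only name cells and no result came from a test. Groups were single samples, reads carried no molecular identifiers, low members were read in few cells and pre-stimulation groups held 5 cells. Leaving out the 6 shallow cells kept every count within 1.5 times and every median within its leave-one-out range. TMM factors shifted the median of all genes by 0.02 to 0.47 and DESeq2 size factors by −0.18 to 0.11 on the log2 scale, a shift that leaves the difference between members and all genes as it was. Where values moved, the cause was not tested. The counts below, like those above with TMM scaling or without 1 cell, stand without the share of all genes at the same setting. Fewer members reach a minimum of 200 CPM. These counts show how the number of members moved, not how it stood against the background.

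In the IL-13 index at 30 min against pre-stimulation, the median was 0.50 with TMM and −0.0004 at the lowest of the other settings. It was −0.031 to 0.46 without 1 cell, reversed without 30 min replicate 7. The number higher was 4 on the first date, 3 with a minimum of 200 CPM, 15 at 1.5-fold and 5 to 15 without 1 cell, and the number lower was 12, 2, 7 and 3 to 6. For activated against pre-stimulation cells the median was 1.37 with TMM, 0.97 with 200 CPM, 1.35 with the pre-stimulation cells of both indexes and 0.97 to 1.27 without 1 cell, and with 200 CPM 11 were higher and 1 lower. For silent against pre-stimulation cells the median was 0.74 with both sets of pre-stimulation cells, 5 were higher with 200 CPM and 20 at 1.5-fold, and the number lower was 0 with 200 CPM, 1 with both sets, 5 at 1.5-fold and 2 to 5 without 1 cell. For activated against silent cells the median was 0.74 on the first and 0.20 on the second date, the number higher 16 on the first date, 5 with 200 CPM and 19 at 1.5-fold, and the number lower 1 with TMM, on the first date and with 200 CPM, 8 on the second date, 5 at 1.5-fold and 1 to 4 without 1 cell. For activated against 30 min cells the median was 0.66 with DESeq2, 1.18 and 0.48 on the first and second date and 0.65 with 200 CPM, the number higher 26 on the first date, 7 with 200 CPM and 26 at 1.5-fold, and the number lower 0 with 200 CPM, 1 to 2 without 1 cell and 2 with averaged single-cell CPM, DESeq2, either date, 10 CPM, no minimum or 1.5-fold.

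In the IL-5 index at 30 min against pre-stimulation, the median was 1.03 with TMM, and with 200 CPM 11 were higher and 1 lower. For activated against pre-stimulation cells the median was 1.19 with averaged single-cell CPM, 1.76 with TMM and 1.18 with 200 CPM, 14 were higher with 200 CPM, and 1 was lower with averaged single-cell CPM, TMM, DESeq2 or 200 CPM and 1 to 3 without 1 cell. For silent against pre-stimulation cells the median was 1.32 with TMM, and with 200 CPM 10 were higher and 0 lower. For activated against silent cells the median was 0.40 with TMM, 0.41 with DESeq2 and 0.39 on the second date, 1 was higher with 200 CPM and 5 to 8 without 1 cell, and the number lower was 3 on the first date, 4 on the second, 0 with 200 CPM, 3 at 1.5-fold and 0 to 1 without 1 cell. For activated against 30 min cells the median was 0.60 with TMM, 0.53 with DESeq2, 0.54 on the first date and 0.31 with 200 CPM, 1 was higher with 200 CPM and 16 at 1.5-fold, and the number lower was 0 with 200 CPM, 2 with no minimum, on the second date and at 1.5-fold and 1 to 2 without 1 cell.

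Of the summed core, regulatory particle, PA28 and immunoproteasome ratios, these changed direction under another setting. At 30 min in the IL-13 index the immunoproteasome ratio ranged from −0.60 to 0.13 without 1 cell (highest without pre-stimulation replicate 4). There the core was −0.063 on the first date and −0.067 to 0.39 without 1 cell (lowest without pre-stimulation replicate 2), and the regulatory particle −0.091 on the first date and −0.012 to 0.25 without 1 cell (lowest without 30 min replicate 7). In IL-13 silent against pre-stimulation cells the immunoproteasome ratio was 0.11 with both sets of pre-stimulation cells and −0.51 to 0.27 without 1 cell (highest without replicate 4). In activated against silent cells the PA28 sum was −0.23 on the second date in the IL-13 index, the immunoproteasome sum was 0.10 on the second date in the IL-5 index, and in the IL-13 index Psmb9 was 3.60 on the first date and −2.42 to 0.67 without 1 cell (highest without silent replicate 9) and Psmd5 was −0.83 on the first date. The immunoproteasome sum of IL-5 activated against 30 min cells, 0.037 as computed from all cells, turned below 0 with averaged single-cell CPM and was −0.51 on the first and 0.54 on the second date and −0.16 to 0.27 without 1 cell. The non-ATPase sum of IL-5 activated against silent cells was −0.044 to 0.15 without 1 cell.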
